A study of Rattus norvegicus with 12 samples.

Results

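The genes described here are those of the peroxisome proliferator-activated receptors (PPARs), their dimer partners and their cofactors, in rat kidney. They are Pparg, which encodes the receptor that rosiglitazone binds, its relatives Ppara and Ppard, the retinoid X receptors Rxra, Rxrb and Rxrg, the liver X receptor gene Nr1h3, and the cofactors Ppargc1a, Ncoa1 and Ncor1. Every probe set that the array annotation pairs with 1 of these 10 symbols was taken, with no filter on signal, which gave 10 of 14217 named genes and 18 of the 31042 probe sets of the array that are not controls. No probe set with several symbols held a member. Of the 18 probe sets, 13 were not dim and covered 8 of the 10 genes. A dim probe set is here 1 whose log2 signal, averaged over the 12 arrays, fell short of the 40th percentile of all probe sets, a signal of about 144. The 5 dim ones were those of Ppara and Rxra, which had no other, and 1 each of the probe sets of Ppard, Rxrg and Ncoa1. The dim probe set nearest to that line was Rxrg 1392271_at, at percentile 31.4, and the nearest above it was that of Pparg, at percentile 50.6.

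The study measured kidney RNA of 12 male Zucker rats with Affymetrix Rat Genome 230 2.0 arrays, using 1 for each rat. Obese Zucker rats lack a working leptin receptor, and the labels call the animals a diabetes model. The 4 groups of 3 rats were lean rats on control diet, lean rats on rosiglitazone, obese rats on control diet and obese rats on rosiglitazone. The control diet was ground chow, and treated rats received it mixed with 3 mg rosiglitazone per kg body weight; all were fed for 12 weeks. The age of the rats is not given in the sources used here. Whether the replicates differ in more than the animal, such as in the day of hybridization, is likewise not given, so that the p-values measure the spread between these arrays.

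PPARs are nuclear receptors that bind fatty acids and their derivatives. Each pairs with a retinoid X receptor on DNA, where a ligand exchanges corepressors such as that of Ncor1 for coactivators such as those of Ncoa1 and Ppargc1a. PPARgamma is known above all for fat cell genes and, in the kidney, for the collecting duct; PPARalpha drives fatty acid oxidation in the proximal tubule; PPARdelta is expressed widely. LXRalpha, the product of Nr1h3, senses oxysterols, pairs with the same retinoid X receptors and drives genes of cholesterol export.

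Reference promoters of Pparg, the drug target, and of Ppargc1a, whose probe sets differed in direction, are shown so that the letters searched for motifs can be seen. RefSeq on the GRCr8 assembly gave windows from 250 bases before to 50 after the start for 9 of the 10 genes, 10 windows in all, since Pparg has 2 whose starts lie 57714 bases apart. Both strands of each window were searched for the nuclear receptor hexamer AGGTCA, for its direct repeat spaced by 1 base, AGGTCANAGGTCA, which holds the hexamer itself and is the class of element PPARs bind, and for the cAMP response element TGACGTCA. The hexamer was in 0 of the 10 windows (16.2% of all 33469 promoter windows hold it), and the direct repeat in 0 (0.0538% of all). The cAMP response element was in 1, that of Ppargc1a, 181 to 174 bases before the start (1.83% of all windows hold it). It is in capitals below; these matches describe the letters of the windows only. The upstream Pparg window lies at chr4:150096808-150097107 (plus strand), the downstream one at chr4:150154522-150154821 (plus strand) and that of Ppargc1a at chr14:63634058-63634357 (plus strand).
Pparg, upstream start: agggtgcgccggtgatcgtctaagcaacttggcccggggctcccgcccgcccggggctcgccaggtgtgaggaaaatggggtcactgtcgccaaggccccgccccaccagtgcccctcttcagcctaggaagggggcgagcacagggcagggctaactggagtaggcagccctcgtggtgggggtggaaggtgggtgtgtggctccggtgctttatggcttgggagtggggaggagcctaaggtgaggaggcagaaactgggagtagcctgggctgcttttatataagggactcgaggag
Pparg, downstream start: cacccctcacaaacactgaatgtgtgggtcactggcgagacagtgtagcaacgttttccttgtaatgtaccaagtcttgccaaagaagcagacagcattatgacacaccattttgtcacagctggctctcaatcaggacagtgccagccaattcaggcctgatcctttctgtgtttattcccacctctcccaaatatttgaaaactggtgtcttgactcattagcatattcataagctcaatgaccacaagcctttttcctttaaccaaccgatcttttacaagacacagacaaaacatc
Ppargc1a: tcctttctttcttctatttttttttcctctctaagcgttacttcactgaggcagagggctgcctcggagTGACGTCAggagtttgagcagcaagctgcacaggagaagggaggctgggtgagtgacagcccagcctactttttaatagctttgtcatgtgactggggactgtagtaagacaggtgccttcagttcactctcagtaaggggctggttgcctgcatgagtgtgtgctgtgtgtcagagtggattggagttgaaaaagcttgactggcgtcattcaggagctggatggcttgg
The upstream Pparg window has 64.7% G and C and the downstream one 43.7%, so that the starts of this gene differ in base composition.

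Values are deposited MAS5 signals on a linear scale, and changes are differences of log2(signal + 16), each with its standard error (SE) or its 95% interval. The offset of 16 shrinks the changes of low signals. No member passed an adjusted p of 0.05 in any of 7 comparisons. In obese against lean rats over both diets 0 of 18 probe sets passed, where 8.15% of all probe sets did. In rosiglitazone against control over both body types 0 of 18 passed, beside 0.0226% of all. On single diets, 0 of 18 differed between obese and lean rats with control diet (2.23% of all) and 0 with rosiglitazone (2.34%). The drug comparison gave 0 of 18 in lean rats (0.00322% of all, 1 probe set) and 0 in obese rats (0.0226%), and the difference of the drug effect between body types gave 0 (0% of all). The test was limma's moderated test with Benjamini-Hochberg adjustment over all 31042 probe sets. At an unadjusted p under 0.05, the same limma fit marked 1 member probe set on control diet (14.8% of all), 1 on rosiglitazone (15.5%), 3 over both diets (22%), 2 for the drug in lean rats (5.37%), 0 in obese rats (4.23%), 0 over both body types (4.92%) and 2 for the difference of the drug effect (4.32%). The median size of the members' log2 change was 0.08 between body types over both diets, against 0.18 for all probe sets, and 0.12 for the drug over both body types, against 0.10 for all. The 18 probe sets belong to 10 genes and are not independent of each other, so these counts are a description.

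**Figure D1:**
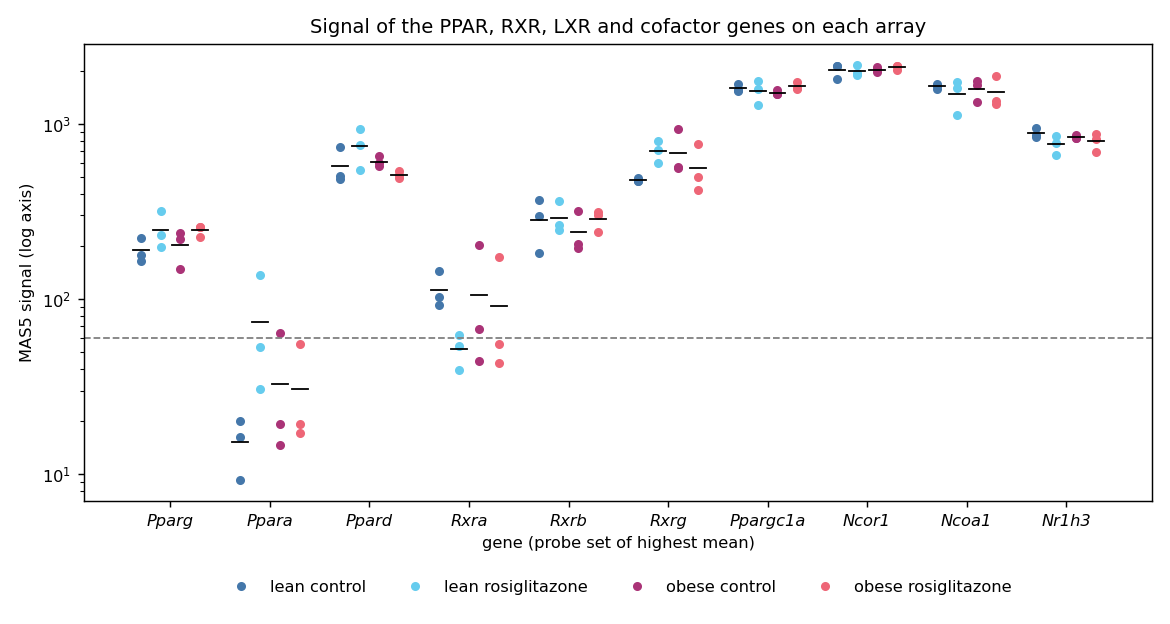
MAS5 signal (log axis) on each of the 12 arrays for the probe set of highest mean of each gene. Points are arrays, coloured by group, and black bars are group means of 3 arrays. The dashed line is the highest signal of the AFFX-TrpnX control probe sets on the 12 arrays, 59.6, here called the bacterial control bound. Other controls, such as the cre spike-in, are brighter. A group is said to be at background when its mean lies below the dashed line. For all genes but Ppara and Rxra the points lie above that line; heights of different genes are not comparable, since probe sets differ in brightness.

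The receptor of the drug comes first. Pparg (probe set 1369179_a_at) had signals of 166, 179 and 223 in lean control rats, 231, 317 and 197 in lean rats on rosiglitazone, 239, 149 and 220.3 in obese control rats and 258, 227 and 257 in obese rats on rosiglitazone. The treated arrays lay higher on average in both body types, but in each body type treated and control arrays overlapped. Group means were 189 ± 29.9, 248 ± 61.8, 203 ± 47.7 and 247 ± 18 in the same order (SD, n = 3 each). Over both body types the log2 change with rosiglitazone was 0.32 (SE 0.15, 95% interval −0.01 to 0.65, a fold of 0.994 to 1.57; limma adjusted p = 0.999). It was 0.35 in lean and 0.29 in obese rats, or 0.17 to 0.49 and 0.10 to 0.41 when each array was left out in turn, and the difference between those was −0.06 (interval −0.72 to 0.60). Between obese and lean rats over both diets it was 0.05 (interval −0.28 to 0.38; adjusted p = 0.897), so that folds below 0.822 or above 1.30 between body types lie outside the interval.

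Markers of fat cells differed between the same groups. The summed signal of 13 measured adipocyte marker genes ran from 7640 to 13624 in lean control, from 15999 to 28759 in lean rosiglitazone, from 4751 to 5444 in obese control and from 8760 to 10045 in obese rosiglitazone rats. A sum weighs bright genes most. Fabp4, which is also a PPARgamma target and is found in endothelium too, had means of 1514, 5154, 403 and 3250 in the same order. The sum is thus no pure measure of fat cells. Of the 13 markers, 1 (Elovl3) lay below the bacterial control bound on every array; Adipoq, which encodes adiponectin, ran from 409.8 to 1110.5 over all arrays and Lep, which encodes leptin, from 19.2 to 171. Over the 12 arrays Pearson's r between log2 Pparg signal and log2 of the marker sum was 0.51, and between their deviations from the group means 0.72. The arrays share 1 scaling and the 4 groups, and this is a description of 12 points. The part of fat cells in the Pparg signal was not tested. In whole kidney, fewer cells of a type and less RNA per cell cannot be told apart.

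The arrays also fell into classes by a spike-in signal. The cre spike-in, an RNA added at hybridization, gave 13509 to 15051 on 5 arrays (arrays 1 and 2 of both lean groups and obese control 1) and 9164 to 11125 on the other 7. Those 7 hold 1 array of each lean group, so calls within that lower class rest on fewer arrays for every probe set. No obese rosiglitazone array was in the higher class, so the classes are unbalanced by body type. With the class as a term in the model of all 12 arrays, 1708 probe sets passed between body types over both diets, against 2530 in the main fit. Within the lower class the Pparg change with rosiglitazone was −0.16 in lean rats, from 1 array a group, and 0.13 over both body types. Within the higher class it was 0.61 in lean rats, from 2 arrays a group. With the class as a term in the model it was 0.35 over both body types, and leaving out each array in turn gave 0.22 to 0.39. The 3 named genes most like Pparg across the 12 arrays, among 14047 probe sets above the dim line, were Acsl1, a fatty acyl-CoA synthetase gene (r = 0.85; 0.86 for deviations from group means), Stard8, of the START domain family (0.83; 0.85), and Ndrg2 (0.79; 0.70). These are the highest of 14047 r values over only 12 arrays, where values this high can arise by chance. They are a description and no evidence of shared regulation. None of the 3 genes passed in the drug comparison over both body types, where their log2 changes were 0.16, 0.05 and 0.22 (adjusted p = 0.999, 0.999 and 0.983).

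Ppara and Ppard encode the relatives of the drug's receptor. The Ppara probe set (1387278_at) was dim: 10 of 12 arrays lay below the bacterial control bound. Signals were 9.22, 20.1 and 16.3 in lean control and 53.1, 30.7 and 137 in lean rosiglitazone rats, and 14.7, 19.4 and 63.7 and 17.2, 55.5 and 19.5 in the obese groups. In lean rats every treated array lay above every control array. In that comparison 4 of 18 member probe sets did not overlap, those of Ppara and Rxra and both of Rxrg, beside 8.39% of all probe sets. The log2 change of 1.36 there (SE 0.48; adjusted p = 0.833) ranged with the offset from 1.99 at an offset of 1 to 0.72 at 64, and since the lean control mean, 15.2 ± 5.52, is at background, its size is not exact.

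Ppard had 2 probe sets, the brighter of which (1374914_at) gave 484, 502 and 736 in lean control, 935, 543 and 757 in lean rosiglitazone, 595, 655 and 574 in obese control and 509.8, 538 and 493 in obese rosiglitazone rats. With rosiglitazone every obese array lay below every lean array, and within obese rats every treated array lay below every control array; lean groups overlapped. The log2 change with the drug was 0.36 in lean rats (interval −0.04 to 0.76; 0.18 to 0.56 without each array in turn) and −0.24 in obese rats (interval −0.64 to 0.17). The difference of the drug effect, −0.59 (SE 0.26, interval −1.16 to −0.03), had an adjusted p of 0.995, and obese against lean on rosiglitazone was −0.49 with an adjusted p of 0.215 (−0.70 to −0.31 without each array in turn). Without overlap were 2 of 18 member probe sets in obese rats with the drug, this one and 1393743_at of Ppargc1a (10.9% of all probe sets), and 2 of 18 in obese against lean rats on rosiglitazone, this one and the dim one of Ncoa1 (19.4% of all). The dim probe set of Ppard (1387684_at) ran from 20.8 to 155 over the 12 arrays, correlated with the brighter one at r = 0.62 (n = 12), and had a log2 change of −0.82 between body types (SE 0.30; adjusted p = 0.125), with 8 arrays below the bound.

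The retinoid X receptors bind DNA with every PPAR. Rxra, whose product is the retinoid X receptor of liver, kidney and other organs, was measured by 1 dim probe set (1369101_at). Its signals were 92.1, 144 and 103 in lean control, 62.5, 54.2 and 39.1 in lean rosiglitazone, 44.2, 67.7 and 203 in obese control and 43, 174 and 55.6 in obese rosiglitazone rats. All 3 lean treated arrays lay below the lean controls, while the obese groups overlapped and 1 array in each, obese control 3 and obese rosiglitazone 2, stood far above the rest of its group. The log2 change with the drug over both body types was −0.54 (interval −1.28 to 0.20; adjusted p = 0.999), and −0.80 to −0.27 without each array in turn. With 5 of 12 arrays below the bacterial control bound and the lean treated mean at background, its size is not exact.

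Rxrb (1389051_at) gave 182, 366 and 299 in lean control, 246, 364 and 264 in lean rosiglitazone, 320.1, 195 and 205 in obese control and 301, 316 and 241 in obese rosiglitazone rats, and the groups compared overlapped. Its log2 change was −0.11 between body types (interval −0.49 to 0.28) and 0.17 with the drug (interval −0.22 to 0.56).

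Rxrg, known from muscle and brain, gave 469.7, 494 and 474 in lean control, 707, 597 and 803 in lean rosiglitazone, 557, 929.7 and 569 in obese control and 420.2, 769 and 498 in obese rosiglitazone rats with its brighter probe set (1370981_at). The lean controls were the tightest group and lay below all lean treated and all obese control arrays, and the obese groups overlapped. The log2 change with the drug was 0.53 in lean rats (SE 0.22; adjusted p = 0.913) and −0.28 in obese rats (interval −0.75 to 0.19; −0.52 to −0.05 without each array in turn). The difference of the drug effect between body types was −0.81 (SE 0.31, interval −1.48 to −0.14; adjusted p = 0.995). The dim probe set of the gene went the other way in lean rats: every treated array lay below every control array, with a log2 change of −0.33, and r between both probe sets was −0.32 over the 12 arrays.

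**Figure D2:**
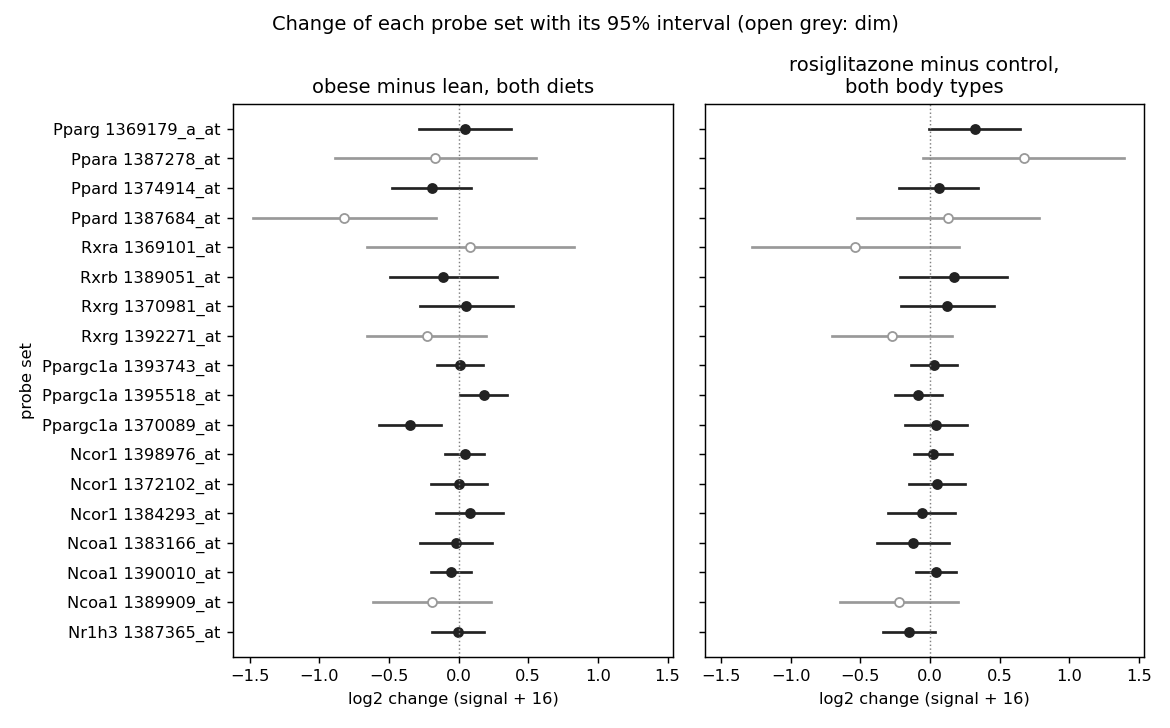
Log2 change of the 18 probe sets (points) with 95% intervals (bars) in obese minus lean rats over both diets (left) and rosiglitazone minus control over both body types (right); open grey points are dim probe sets. Of the probe sets that are not dim, Ppargc1a 1370089_at lies lowest on the left, at −0.35, and Pparg highest on the right, at 0.32.

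Ppargc1a encodes PGC-1alpha, a coactivator of PPARs that drives mitochondrial genes. Its 3 probe sets, none of them dim, did not share a direction between body types. Probe set 1370089_at gave 399, 414 and 484 in lean control, 367, 481 and 462 in lean rosiglitazone, 329.9, 299.9 and 355 in obese control and 332, 326 and 383 in obese rosiglitazone rats. Every obese control array lay below every lean control array, but on rosiglitazone 1 lean array (lean rosiglitazone 1) lay below 1 obese array. Over both diets the log2 change was −0.35 (SE 0.10, interval −0.57 to −0.12, a fold of 0.675 to 0.918), and the adjusted p was 0.057. It passed without lean rosiglitazone 1 (adjusted p = 0.0338), with dim probe sets left out (0.0382) and with quantile normalization (0.0277), and its adjusted p ran from 0.0277 to 0.136 over 22 alternatives.

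Probe set 1395518_at gave 1415, 1507 and 1486 in lean control, 1369, 1349 and 1484 in lean rosiglitazone, 1675, 1618 and 1756 in obese control and 1345, 1869.6 and 1538 in obese rosiglitazone rats. Here every obese control array lay above every lean control array, and the treated groups overlapped. Its log2 change between body types was 0.18 (SE 0.08; adjusted p = 0.193). Probe set 1393743_at, of the highest mean, gave 1548, 1693 and 1554 in lean control, 1286, 1572 and 1759 in lean rosiglitazone, 1489, 1478 and 1555 in obese control and 1596, 1746 and 1582 in obese rosiglitazone rats, with a change of 0.01 between body types (interval −0.15 to 0.17; adjusted p = 0.957). In obese rats every treated array of this probe set lay above every control array, with a log2 change of 0.12. The r between 1395518_at and 1370089_at over the 12 arrays was −0.49, and between their deviations from the group means 0.09. For 1393743_at it was 0.29 with 1395518_at (deviations 0.49) and 0.25 with 1370089_at (deviations 0.46). Which transcripts each probe set reports is not known here, so no direction is given for the gene. With the drug over both body types the 3 changes were 0.03, −0.08 and 0.04, with intervals within −0.25 and 0.26.

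**Figure D3:**
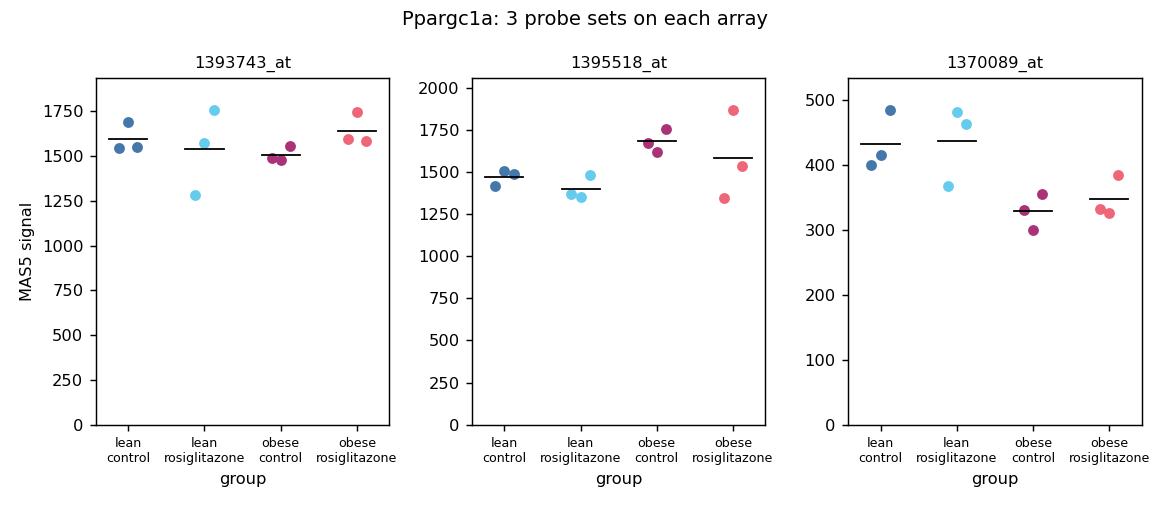
MAS5 signal (linear axes from 0) of the 3 Ppargc1a probe sets on each array; points are rats and black bars group means of 3. In 1370089_at the obese control arrays (300 to 355) lie below the lean control arrays (399 to 484), and in 1395518_at the obese control arrays (1618 to 1756) lie above them (1415 to 1507).

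Ncoa1 encodes the coactivator SRC-1. Its brightest probe set (1383166_at) gave 1590.1, 1638 and 1694 in lean control, 1128, 1742 and 1596 in lean rosiglitazone, 1332, 1748 and 1675 in obese control and 1888, 1354 and 1290.5 in obese rosiglitazone rats, and the groups overlapped. The change was −0.02 between body types (interval −0.28 to 0.24) and −0.12 with the drug (interval −0.38 to 0.14). Probe set 1390010_at, between 1300 and 1613 over the 12 arrays, was lower on every obese control array than on any lean control array, with a log2 change of −0.05 over both diets (interval −0.20 to 0.09). The third (1389909_at) was below the bacterial control bound on all 12 arrays.

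Ncor1 encodes a corepressor that nuclear receptors bind without ligand. Its brightest probe set (1398976_at) gave 2128, 1799 and 2129 in lean control, 2175, 1952 and 1902 in lean rosiglitazone, 1970.4, 2109.7 and 2047 in obese control and 2131, 2151 and 2038 in obese rosiglitazone rats. The log2 change was 0.04 between body types (interval −0.09 to 0.18) and 0.02 with the drug (interval −0.12 to 0.16), which leaves folds of 0.921 to 1.14 within the 2 intervals. Its other probe sets ran from 782 to 1151 (1372102_at) and from 507 to 728 (1384293_at), with changes between −0.06 and 0.08 in both comparisons. The r between 1372102_at and 1384293_at over the 12 arrays was −0.58 (deviations from the group means −0.63).

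Nr1h3 (1387365_at) gave 837, 953 and 859 in lean control, 775, 857 and 663 in lean rosiglitazone, 866, 831 and 836 in obese control and 879, 819 and 689 in obese rosiglitazone rats. The groups compared overlapped, and the change was 0.00 between body types (−0.19 to 0.18) and −0.15 with the drug (−0.34 to 0.04). Over the whole set, 4 of 18 probe sets did not overlap between obese and lean rats on control diet, namely those given above of Rxrg, Ppargc1a (1395518_at and 1370089_at) and Ncoa1, where 21.7% of all probe sets did not. None of the 18 did so within both diets at once (7.02% of all) or within both body types with the drug (0.503% of all).

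Genes known as targets of these receptors were counted next. Each list was chosen with earlier results of these data known, is described by its counts alone, and each gene stands by its brightest probe set. Of 23 measured PPARgamma target genes, 1 rose and 11 fell in obese against lean rats over both diets (4.28% of all probe sets rose and 3.87% fell), with a median log2 change of −0.39, against 0.00 for all probe sets. With rosiglitazone over both body types 4 rose and 0 fell (0.0226% of all probe sets rose and 0% fell), with a median of 0.28 against 0.01 for all. Of the 23 genes, 6 are also on the adipocyte marker list: 5 of those 6 fell in obese rats and 2 rose with the drug, and of the other 17, 6 fell and 1 rose in obese rats and 2 rose with the drug. The summed adipocyte marker signal given above differed between the same groups, and its part in these counts was not tested.

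Among these, Ucp1, the uncoupling protein of brown fat, gave 803, 632 and 894 in lean control, 2357, 5435 and 1535 in lean rosiglitazone, 32.8, 6.87 and 4.11 in obese control and 79.1, 132 and 219.8 in obese rosiglitazone rats. All 6 lean arrays lay above all 6 obese arrays. The log2 change between body types was −4.49 (SE 0.31; adjusted p = 1.75e-06), with the obese control mean at background so that its size is not exact. Aqp7, a glycerol channel of fat cells and the proximal tubule, had 4171 ± 144 in lean control, 4493 ± 480.1 in lean rosiglitazone, 2739 ± 249 in obese control and 2705 ± 362 in obese rosiglitazone rats (SD, n = 3 each; log2 change between body types −0.67, SE 0.08; adjusted p = 0.000208, and 0.0536 within the lower spike-in class). Cidea, a lipid droplet protein, had a log2 change of −1.55 between body types (SE 0.20; adjusted p = 0.000424).

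Fabp4, which binds fatty acids in fat cells and endothelium, gave 1068, 1065 and 2408 in lean control, 4343, 7256 and 3864 in lean rosiglitazone, 216, 502 and 492 in obese control and 4111, 2862 and 2776 in obese rosiglitazone rats. Every treated array lay above every control array of its body type. The log2 change with the drug was 2.42 (SE 0.25; adjusted p = 0.00222). Rbp7, a retinol binding protein of fat and endothelium, gave 91.6, 119.6 and 98.6 in lean control, 566, 449 and 308 in lean rosiglitazone, 45.1, 16.5 and 66.7 in obese control and 326, 185 and 246 in obese rosiglitazone rats, also without overlap (log2 change 2.08, SE 0.23; adjusted p = 0.00472), with the obese control mean at background. Both calls were lost with plain eBayes (no trend, not robust) and when only the 7 arrays of the lower class were fitted, with adjusted p up to 0.136 for Fabp4 and 0.281 for Rbp7, and kept without each array in turn. Cd36, a fatty acid transporter gene and the fourth that rose beside Ucp1, changed by 1.20 (SE 0.15; adjusted p = 0.0105). That call was lost without lean rosiglitazone 1, lean rosiglitazone 2 or obese rosiglitazone 2, with an adjusted p of at most 0.0652, and Cd36 was named after its value was seen. Ucp1 rose with the drug by 2.10 (adjusted p = 0.0428), a call lost without 9 of the 12 arrays in turn, where its adjusted p ran from 0.0201 to 0.143. It was kept under 7 of 22 alternatives in all, was lost with an offset of 1 or 64, median centring or the replicate block, and had an adjusted p of up to 0.453, with plain eBayes. The number of PPARgamma targets that rose with the drug was 2 without lean rosiglitazone 1, lean rosiglitazone 2 or obese rosiglitazone 2. It was 0 with plain eBayes, where 0 of all 31042 probe sets passed in this comparison. Within the lower class each lean group holds 1 array, which limits any call there. The number of PPARgamma targets that rose in obese rats was 3 without lean control 3 or lean rosiglitazone 1, and 2 without obese control 2 or obese rosiglitazone 3.

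**Figure D4:**
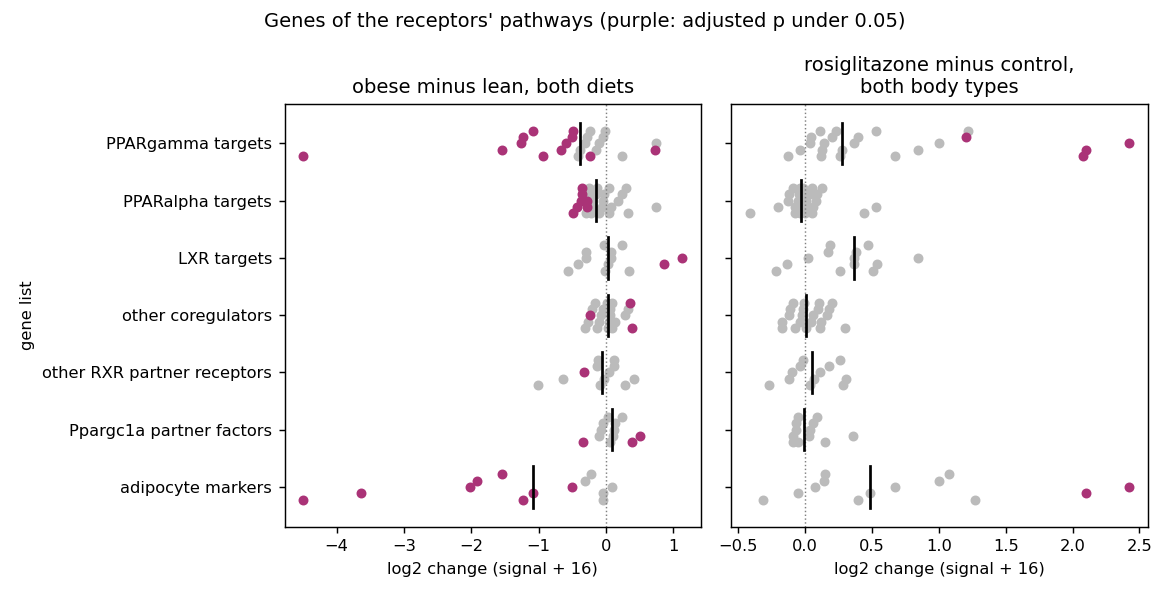
Log2 change of the genes of 7 lists (1 point per gene, by its brightest probe set) in obese minus lean rats over both diets (left) and rosiglitazone minus control over both body types (right); purple points passed an adjusted p of 0.05 and black bars are list medians. The PPARgamma targets and adipocyte markers have medians of −0.39 and −1.09 on the left and of 0.28 and 0.49 on the right.

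Of 27 measured PPARalpha targets, 7 fell and 0 rose in obese rats (median −0.15), beside 3.87% and 4.28% of all probe sets. With the drug 0 passed (median −0.03). Acadm, the medium-chain acyl-CoA dehydrogenase of fatty acid oxidation, had 12423 ± 1172 in lean control, 13203 ± 1532 in lean rosiglitazone, 9427 ± 529.9 in obese control and 9527 ± 388 in obese rosiglitazone rats (SD, n = 3 each; log2 change between body types −0.43, SE 0.07; adjusted p = 0.00137). Acadl, its long-chain relative, fell in obese rats by 0.35 (adjusted p = 0.00246) and Cyp4a3, a fatty acid omega-hydroxylase, by 0.37 (adjusted p = 0.00346). Within the lower spike-in class neither passed (0.0534 and 0.0916), while Acadm did (0.044). The smallest p-values with the drug belonged to Cpt1b, a carnitine palmitoyltransferase (0.44, adjusted p = 0.694), and Angptl4, an inhibitor of lipoprotein lipase (0.53, adjusted p = 0.983), neither of which passed. Of 8 proximal tubule markers, the nephron segment where PPARalpha targets are known to be active, 5 fell and 1 rose in obese rats, with a median of −0.41; the part of that segment's share in these counts was not tested. The count of PPARalpha targets that fell was 4 with plain eBayes, which called 1571 of all probe sets in this comparison against 2530 in the main fit. Without lean control 3 or lean rosiglitazone 1, 2 PPARalpha targets rose. Within the lower class of spike-in signal each lean group holds 1 array, which limits any call there.

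Of 13 measured LXR targets, 2 rose and 0 fell in obese rats (median 0.03), beside 4.28% and 3.87% of all probe sets. With the drug 0 passed, beside 0.0226% of all probe sets. The mean was higher with the drug for 11 of the 13, with a median of 0.37 against 0.01 for all probe sets. Abca1, the cholesterol exporter, gave 213 ± 139 in lean control, 314 ± 33.1 in lean rosiglitazone, 514 ± 129 in obese control and 608 ± 139 in obese rosiglitazone rats (SD, n = 3 each; log2 change between body types 1.13, SE 0.23; adjusted p = 0.00823). Of its 3 other probe sets, 1394490_at also rose, by 0.90, and 2 did not pass (0.09 and 0.38). Apoe, which encodes the lipid carrier apolipoprotein E, rose by 0.86 (adjusted p = 0.00255), while its dim second probe set had −0.31 (adjusted p = 0.605). With the drug, Srebf1, a regulator of lipid synthesis (0.38, adjusted p = 0.709), and Mylip (0.37, adjusted p = 0.856) had the smallest p-values of the list and did not pass. Without lean control 2, 2 LXR targets fell.

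Of 21 other coregulators measured, 2 rose and 1 fell in obese rats, beside 4.28% and 3.87% of all probe sets (median 0.03), and 0 passed with the drug (median 0.01). Tbl1x, a subunit of the Ncor1 corepressor complex, rose by 0.39 (SE 0.07; adjusted p = 0.00316), but its other probe sets had 0.08 and −0.12 and did not pass, and the adjusted p of the first was 0.0697 on arrays of the lower spike-in class alone. Ep300, an acetyltransferase coactivator, rose by 0.36 (adjusted p = 0.033, and 0.0321 to 0.0787 without each array in turn, 6 of which ended the call). Its other probe set, which is not dim, had 0.09 and did not pass (adjusted p = 0.768). Ncoa7, a nuclear receptor coactivator, fell by 0.25 (adjusted p = 0.019), and its other probe set had −0.27 (adjusted p = 0.0195). For the first, 2 of 12 left-out arrays, obese control 3 and obese rosiglitazone 3, ended the call, with an adjusted p of at most 0.0601. That call was also lost with the spike-in class as a term in the model. With the drug Crebbp, the relative of Ep300 (0.16), and Prdm16, a brown fat cofactor (0.18), had the smallest p-values and did not pass (adjusted p = 0.999 for both). Median centring removed the call of Ncoa7 and of Ep300 (0.106 for Ep300), and quantile normalization that of Ncoa7.

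Of 12 other receptors that pair with retinoid X receptors, 1 fell in obese rats, where 3.87% of all probe sets fell, and 0 passed with the drug. It was Rara, a retinoic acid receptor, with a change of −0.33 (SE 0.09, adjusted p = 0.0308). That call ended when 9 of the 12 arrays were left out in turn (adjusted p 0.022 to 0.0824). It was also lost with the spike-in class as a term in the model. Rarb (0.18) and Rarg (0.29) had the smallest p-values with the drug and did not pass. Of 12 partner factors of PGC-1alpha, 2 rose and 1 fell in obese rats (4.28% and 3.87% of all probe sets) and 0 passed with the drug. Hnf4a, a nuclear receptor of the proximal tubule and liver, fell by 0.34 (SE 0.06; adjusted p = 0.00205), and its other probe sets fell too, by 0.83 and 0.64. The first had an adjusted p of 0.0846 on arrays of the lower spike-in class alone. Gabpa, a factor of mitochondrial genes, rose by 0.39 (adjusted p = 0.0173, but 0.0518 without obese control 2 and 0.316 within the lower class, and not called with the class as a term), and Sirt3, a mitochondrial deacetylase, by 0.50 (adjusted p = 0.0351, and up to 0.0847 without each array in turn, with 8 calls ended). Sirt3 was also not called after median centring or quantile normalization, nor with the spike-in class as a term. Tfb1m (0.36) and Esrrb (0.15) had the smallest p-values with the drug and did not pass.

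The adipocyte markers had the lowest median of the 13 lists between body types, −1.09. Of 13 genes measured, 0 rose and 8 fell in obese rats, beside 4.28% and 3.87% of all probe sets. With the drug 2 rose (median 0.49), Fabp4 and Ucp1 as given above, beside 0.0226% of all. Cox8b, a cytochrome oxidase subunit found in muscle and brown fat, had a log2 change of −3.64 between body types (adjusted p = 6.68e-06), but both obese group means lay under the bacterial control bound, so its size is not exact. Cfd, the fat cell protease adipsin, had a log2 change of −1.91 (adjusted p = 0.000223). Markers of the kidney tubule were bright on every array: Umod of the thick ascending limb ran from 16369 to 23092, Slc34a1 of the proximal tubule from 8751 to 15565 and Aqp2 of the collecting duct from 9919.5 to 13229.8. The podocyte marker Nphs1 was far lower, from 58.8 to 372, with its lowest value just under the bacterial control bound of 59.6. Of 7 collecting duct markers, the segment where PPARgamma is known to act, 3 rose and 0 fell in obese rats (median 0.33), beside 4.28% and 3.87% of all probe sets. Of 6 thick limb and distal tubule markers 1 rose and 1 fell, of 6 leukocyte markers 1 rose and 2 fell, and of 4 podocyte and 4 endothelium markers 0 passed. With the drug 0 genes of these 5 lists and of the proximal tubule list passed. Array medians lay between 204 and 239, a span of 0.21 on the log2 scale, and lean rosiglitazone 3 had the lowest median correlation with its own group, 0.953, against 0.96 to 0.977 for the others.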

How the data were processed

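Kidney RNA of 12 rats (3 in each of 4 groups) was hybridized to 1 array each. Per the labels, Trizol was used for extraction and biotin as the label. The authors deposited signal intensity values, made with MAS5 per the submitters' processing notes, which give no version. The scaling target is not given in the sources used here; trimmed means (2% at each end) lay between 500.12 and 500.15 on all arrays, so no further normalization was applied. Signals were turned to log2 after adding 16, and 57 control probe sets were left out of the 31099. All 12 arrays entered 1 model with 4 group means and 8 residual degrees of freedom (limma 3.58.1 with trend and robust eBayes, statmod 1.5.0, R 4.3.3), tested on simulated data as large as the real. Benjamini-Hochberg adjustment ran over 31042 probe sets within each of 7 comparisons, with no filter. Changes of low signals depend on the offset, and the number of arrays limits the precision. With 3 against 3 arrays an exact two-sided permutation test cannot go below p = 0.10.

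The probe set of highest mean stood for a gene. Named from each list were up to 3 called genes of smallest p between body types over both diets and the 2 of smallest p with rosiglitazone over both body types; for Pparg, the 3 genes of highest Pearson r. Further probe sets of the members are given in full where they bear on a result and otherwise by their range. The members and the 13 pathway and marker lists were chosen with earlier results of these data known. The gene IDs of all 10 members matched the gene table of the GRCr8 assembly. Alternatives were offsets of 1 and 64, a filter on dim probe sets, median centring, quantile normalization, plain eBayes, the spike-in class as a term and within each class, the replicate number as a block, only the groups compared, and each array left out. Figures were drawn with matplotlib 3.10.9.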

Additional observations from a re-analysis of the deposited data

How the results depend on the processing

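In obese against lean rats over both diets the count of member probe sets past the threshold, 0 as reported, became 1 with dim probe sets left out and 1 with quantile normalization. Leaving out each array in turn gave 0 to 1, with 1 without lean rosiglitazone 1; each time the probe set was Ppargc1a 1370089_at. In the other 6 comparisons the count stayed at 0 under every alternative that could be fitted. Within the higher spike-in class a value could be had only for obese against lean rats on control diet and for the drug in lean rats. Same-numbered arrays of different groups deviated together little (r from −0.18 to 0.18 over 18 pairs, 4 of them over 0.1, median 0.07). Over 36 pairs of unequal number the median was −0.02. The numbers were therefore not used as pairs, though this check cannot exclude a shared day or batch. With the replicate block the count was 0 in each comparison. Of 1858 log2 changes of members compared with an alternative, 1855 were called in neither fit; of these, 117 turned sign, 2 of them where the reported change exceeded its SE, namely Pparg with rosiglitazone in lean rats (−0.16) and Ppargc1a 1393743_at for the difference of the drug effect (−0.07), both within the lower spike-in class. A move larger than the SE was seen in 68. The dim signals of Ppara and Rxra leave wide intervals, and changes within them were not resolved.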
